A study of Caenorhabditis elegans with 2 samples.

Results

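The regions described here are the autosomal intronic peaks of the nuclear hormone receptor NHR-2 in Caenorhabditis elegans embryos. They were taken from the deposited peak list on genome build ce11 (assembly WBcel235). A peak was kept when its summit lay on an autosome, inside a protein-coding gene and in no exon of any gene. The summit also had to lie outside every promoter window, defined as the 1000 bp before and the 200 bp after the 5′ end of a protein-coding gene, and the peak interval had to overlap no gene annotated as ncRNA. The rule took 334 peaks of the list and left 1527, a share of 17.9%, which was 23.8% of the 1405 autosomal peaks. The 334 peaks lay in 214 host genes. The other autosomal peaks comprised 499 promoter peaks, 421 intergenic peaks, 127 exonic peaks, 23 peaks with an intronic summit whose interval overlapped an ncRNA gene, and 1 peak in another kind of gene. Regions came from ChIP-seq, the sequencing of DNA precipitated with a chromatin protein, in mixed-stage whole embryos of both sexes. All animals were of strain OP99, genotype unc-119(ed3) III with the integrated transgene wgIs99, and the 2 libraries were biological replicates 1 and 2 of this single group. One label field describes the target as an eGFP-nhr-2 fusion and another gives nhr-2 as the antibody, so the animals carried the transgene's copies of nhr-2 and the antibody is not settled. The labels name a control, which was not analysed here. Regions carry no expression values, so the embryonic label could not be compared with marker genes.

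Nuclear hormone receptors are transcription factors with a zinc-finger DNA-binding domain, and many of them recognise the half-site AGGTCA, singly or repeated. NHR-2 is one of the receptors present in the early worm embryo and is known to be needed for embryonic development. Introns of worm genes can hold enhancers and internal promoters that act on the host gene or on its neighbours.

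The bases within 75 bp of the summit of the 8 strongest peaks that could be printed, each with a candidate region in both replicates, are given to show what sequence lay under the highest signal. They are on the + strand of ce11, 5′ to 3′, from the RefSeq copy of the assembly. Capitals mark AGGTCA, the receptor half-site; GAGAGA, a GA repeat; CAGGTG, an E-box that basic helix-loop-helix and Snail-type factors bind; and TTACGCAA, an 8-base word whose shares are given with those of the other words. Each was marked on either strand, so that capitals may show the word or its reverse complement.
zfp-1 (chrIII:8795774-8795924): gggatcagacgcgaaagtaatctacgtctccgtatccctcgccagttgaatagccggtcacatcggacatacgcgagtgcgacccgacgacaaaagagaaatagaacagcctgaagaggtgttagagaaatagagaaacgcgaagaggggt
vab-1 (chrII:4577524-4577674): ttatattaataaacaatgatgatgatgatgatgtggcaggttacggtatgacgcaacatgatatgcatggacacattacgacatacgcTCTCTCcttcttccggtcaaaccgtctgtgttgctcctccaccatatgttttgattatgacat
mnk-1 (chrII:10549458-10549608): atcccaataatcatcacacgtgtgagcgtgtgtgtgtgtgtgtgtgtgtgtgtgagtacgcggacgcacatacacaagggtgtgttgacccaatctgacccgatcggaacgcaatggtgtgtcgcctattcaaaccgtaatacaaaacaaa
magu-2 (chrV:8797032-8797182): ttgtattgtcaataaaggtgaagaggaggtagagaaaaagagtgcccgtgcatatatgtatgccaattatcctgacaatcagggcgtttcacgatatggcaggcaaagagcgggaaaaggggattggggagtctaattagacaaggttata
par-3 (chrIII:5668201-5668351): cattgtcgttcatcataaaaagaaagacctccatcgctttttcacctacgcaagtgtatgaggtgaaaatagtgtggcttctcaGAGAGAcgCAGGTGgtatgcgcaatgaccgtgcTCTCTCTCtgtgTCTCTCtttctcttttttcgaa
cyd-1 (chrII:12985951-12986101): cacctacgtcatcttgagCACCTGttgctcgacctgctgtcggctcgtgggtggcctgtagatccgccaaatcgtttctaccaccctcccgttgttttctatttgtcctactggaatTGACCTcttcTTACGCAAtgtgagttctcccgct
Y37A1A.4 (chrIV:13945334-13945484): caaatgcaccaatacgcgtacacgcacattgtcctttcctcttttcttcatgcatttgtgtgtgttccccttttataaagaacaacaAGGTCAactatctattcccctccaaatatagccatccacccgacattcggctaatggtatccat
sos-1 (chrV:4525668-4525818): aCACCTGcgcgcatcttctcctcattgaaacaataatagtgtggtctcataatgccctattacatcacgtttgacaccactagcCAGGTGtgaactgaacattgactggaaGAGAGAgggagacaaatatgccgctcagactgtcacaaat

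Of these 8 windows, those in cyd-1 and Y37A1A.4 hold AGGTCA, and those in vab-1, par-3 and sos-1 hold GAGAGA. The windows in zfp-1, mnk-1 and magu-2 hold none of the marked words. The next set is the 6 strongest remaining peaks with AGGTCA that could be printed, given to show the half-site in its surroundings. The peaks with AGGTCA in nhr-2 (1638), eya-1 (354), lsy-22 (264) and tol-1 (242) are not shown.
ncl-1 (chrIII:7734230-7734380): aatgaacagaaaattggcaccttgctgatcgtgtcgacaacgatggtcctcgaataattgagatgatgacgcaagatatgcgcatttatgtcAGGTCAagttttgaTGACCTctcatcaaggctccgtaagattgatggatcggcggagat
frl-1 (chrIII:2126050-2126200): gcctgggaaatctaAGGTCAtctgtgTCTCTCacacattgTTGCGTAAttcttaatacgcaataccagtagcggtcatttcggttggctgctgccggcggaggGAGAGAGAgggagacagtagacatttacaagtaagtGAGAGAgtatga
pal-1 (chrIII:4806470-4806620): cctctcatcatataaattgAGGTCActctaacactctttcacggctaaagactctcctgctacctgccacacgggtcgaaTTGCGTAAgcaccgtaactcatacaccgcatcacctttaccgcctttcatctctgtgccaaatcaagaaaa
C09F9.2 (chrII:14706074-14706224): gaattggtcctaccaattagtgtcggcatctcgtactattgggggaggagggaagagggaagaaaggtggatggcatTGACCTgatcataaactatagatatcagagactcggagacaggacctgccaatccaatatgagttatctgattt
shc-2 (chrII:4986230-4986380): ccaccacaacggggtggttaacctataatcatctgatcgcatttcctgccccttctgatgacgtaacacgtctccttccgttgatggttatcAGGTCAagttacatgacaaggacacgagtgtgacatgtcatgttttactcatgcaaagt
cdc-25.2 (chrV:1574733-1574883): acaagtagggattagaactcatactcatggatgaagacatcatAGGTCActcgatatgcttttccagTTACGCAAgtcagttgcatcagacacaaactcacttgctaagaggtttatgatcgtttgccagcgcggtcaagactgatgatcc

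In this set, the ncl-1 window holds a pair of half-sites facing each other with 8 bp between them. The windows in frl-1, pal-1 and cdc-25.2, like that of cyd-1, hold both AGGTCA and TTACGCAA.

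The strongest autosomal intronic peak lay in nhr-2 itself, in intron 2 of the gene, 520 bp downstream of its 5′ end (chrI:5820369-5820848). Its signal, the authors' enrichment score, was 1638 in the series list, 846 in replicate 1 and 796 in replicate 2. It ranked 3 among the thresholded peaks of the whole genome, 3 in replicate 1 and 4 in replicate 2. The transgene carries nhr-2, and signal from its copies and from the chromosomal gene cannot be told apart. The peak was the only one in nhr-2 among the 334, and 124 bp of its interval overlapped an exon. Its summit window held AGGTCA at 2 places in the same orientation, with 33 bp between them. The promoter window of nhr-2 held another peak, of signal 1111 in the series list, which the rule left out.

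The next peaks lay in genes of chromatin, cell contact, translation, polarity and the cell cycle. In zfp-1, which encodes the worm AF10 homologue with PHD zinc fingers, the strongest of 3 peaks had a signal of 806 in the series list, 404 in replicate 1 and 401 in replicate 2. It lay in intron 4, and the other zfp-1 peaks had signals of 355 and 100. In vab-1, the Eph receptor gene, the strongest of 4 peaks had 572 in the series list, 297 in replicate 1 and 272 in replicate 2. It lay in intron 2, and the other 3 had signals of 260, 102 and 81.7. In mnk-1, which encodes a MAP kinase-interacting kinase, the strongest of 3 peaks had 566 in the series list, 331 in replicate 1 and 233 in replicate 2. Signals from different lists are on different scales, so these values rank regions within a list and are not levels to be compared between lists.

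In magu-2, named for the membrane-associated guanylate kinases, the peak had a signal of 459 in the series list, 262 in replicate 1 and 199 in replicate 2. In par-3, which encodes the PDZ scaffold of the anterior polarity complex, it had 441 in the series list, 244 in replicate 1 and 198 in replicate 2, and it lay in intron 4. In cyd-1, the cyclin D gene, the strongest of 4 intronic peaks had 430 in the series list, 253 in replicate 1 and 175 in replicate 2. A stronger intergenic peak, of 574 in the series list, lay upstream of the 5′ end of cyd-1 and outside the set. In sos-1, the Ras exchange factor gene, the strongest peak lay in intron 13 and had 392 in the series list, 251 in replicate 1 and 142 in replicate 2. The remaining hosts of the 25 strongest peaks had signals between 279 and 393. They include Y37A1A.4 (393), the TOR kinase gene let-363 (387), the nucleolar size regulator gene ncl-1 (386), lsy-22 (374), the formin gene frl-1 (366), the folliculin gene flcn-1 (361) and the DNA polymerase theta gene polq-1 (358). They further include the eyes-absent homologue eya-1 (354), the aryl hydrocarbon receptor gene ahr-1 (327), the Ror receptor kinase gene cam-1 (324), miz-1 (315), the TRPA channel gene trpa-1 (311) and the TCF gene pop-1 (309). The F-box gene dre-1 (303), the caudal homeodomain gene pal-1 (301) and Y50D7A.1 (279) complete them.

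**Figure D1:**
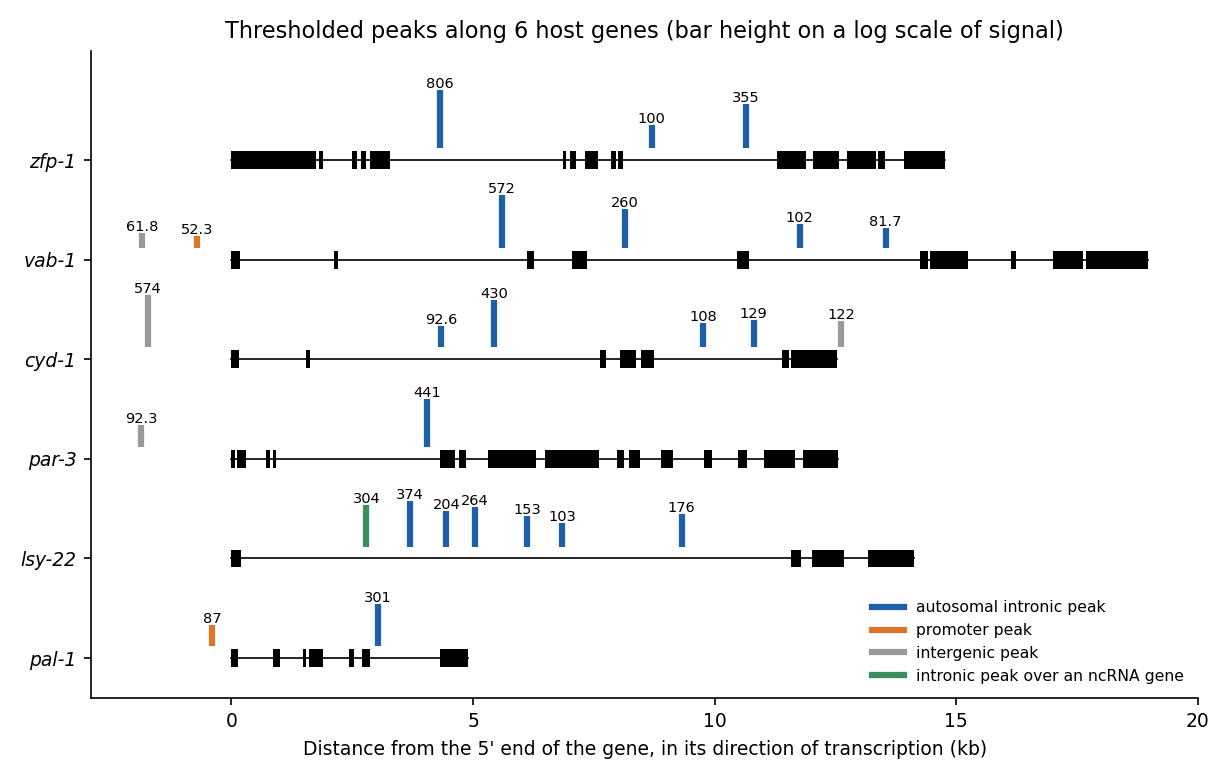
Thresholded peaks along 6 host genes, drawn by distance from the 5′ end of the gene in kb along its direction of transcription, with exons of all transcripts as black blocks. Bar height follows the signal on a log scale and the number over each bar is the signal. Intronic peaks stand alone in par-3 (441) and pal-1 (301) and in groups of 6 in lsy-22 (103 to 374) and 4 in cyd-1 (92.6 to 430). A further intronic peak of lsy-22 (304) overlaps an ncRNA gene and is outside the set.

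Over all 334 peaks the signal ran from 51.7 to 1638, with quartiles of 64.4, 90.4 and 152. The median of 90.4 stood above that of the promoter peaks, 72.5, and close to that of the intergenic peaks, 94.2. Of the 100 strongest peaks of the whole list, 24 were autosomal intronic peaks, against 15 promoter and 26 intergenic peaks of the autosomes. The interval width was 380 bp at the median (97 to 522), and 232 peaks had exactly that width. Together the intervals covered 112 kb. The weakest peaks of the set had signals of 51.9 in F43G6.4 and 51.7 in F57A8.1, and the strongest intronic candidates that fell outside the thresholded list had 51.5 in T01G9.2 and 51.3 in K04B12.2. The list therefore ended within a continuous run of signal values. The −log10 q value was at its ceiling for 331 of the 334 peaks and carries no ranking.

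The deposited candidate list, from which the thresholded peaks came, held 8591 autosomal regions that met the same positional rule. Of these, 334 were thresholded, a share of 3.89% (95% exact Clopper-Pearson interval 3.49 to 4.32%). The background over all autosomal candidates was 5.66%. The share was 7.24% (6.64 to 7.88%) for promoter candidates and 7.29% (6.63 to 7.99%) for intergenic candidates. The intronic share lay below the background and below both of these shares, with intervals that did not overlap. For exonic candidates the share was 4.04% (3.38 to 4.78%), and its interval overlapped the intronic one. The low share was thus not particular to introns. All intervals given here cover counting error only, and neighbouring regions are not independent.

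Every one of the 334 peaks overlapped a candidate region in replicate 1, and 332 did so in replicate 2. The exceptions were a peak in the cadherin gene hmr-1 (signal 61.9 in the series list and 56.3 in replicate 1) and one in Y67D8A.2 (58.6 in the series list and 50.7 in replicate 1). For 233 peaks, or 69.8% (64.5 to 74.6%), the best overlapping region was, in both replicates, among as many of the strongest regions as the thresholded list is long. That share was 58.9% (54.5 to 63.3%) for promoter peaks and 74.1% (69.6 to 78.2%) for intergenic peaks. A further 54 peaks reached that rank in replicate 1 alone, 38 in replicate 2 alone and 9 in neither. Over the 332 peaks with both values, Spearman's rho between the replicate signals was 0.72, given as a description because the peaks were selected by agreement between these same libraries. The summits in the replicates lay 26 bp apart at the median and within 50 bp of each other for 247 peaks. Ranks spread widely at the weak end, to 8982 in replicate 1 and 18395 in replicate 2.

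**Figure D2:**
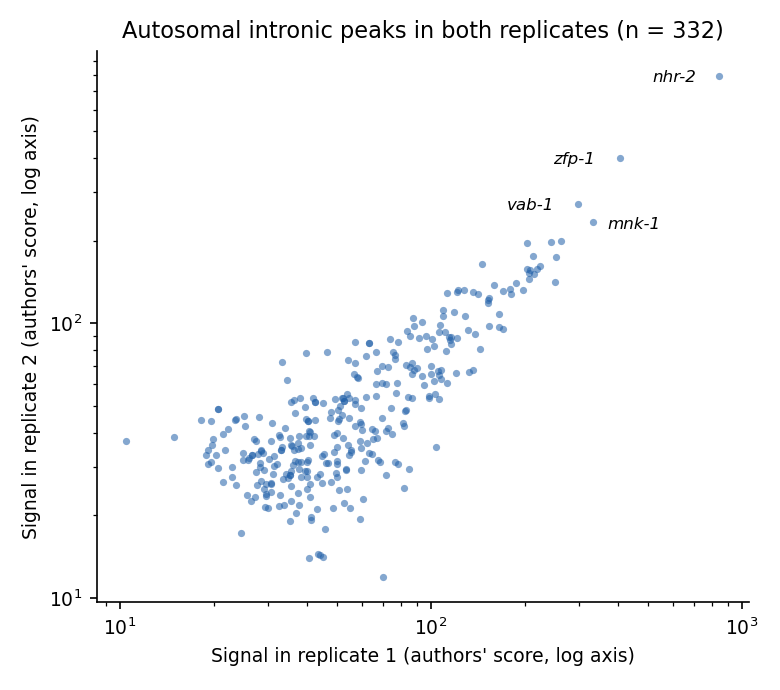
Signal of the 332 autosomal intronic peaks with a candidate region in both replicates, replicate 1 on the horizontal and replicate 2 on the vertical axis, both log axes of the authors' score. The peaks in nhr-2 (846 and 796) and zfp-1 (404 and 401) stand apart at the top, and the cloud widens below a signal of about 100.

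The place of a peak within the 2 replicate lists differed widely for some peaks. The largest ratio of ranks was for a peak in Y54H5A.2 (signal 85.5), which ranked 515 in replicate 1 and 18395 in replicate 2. Those in madd-2 (59.2) and noca-1 (57.9) ranked 997 and 1032 in replicate 1 and 12157 and 11847 in replicate 2. In the opposite direction, a peak in mex-3, an RNA-binding gene of the early embryo, with a signal of 56.3, ranked 8982 in replicate 1 and 1114 in replicate 2. Among stronger peaks, one in lsy-22 (103) ranked 410 in replicate 1 and 2372 in replicate 2, and one in shc-2 (143) ranked 265 in replicate 1 and 1204 in replicate 2. Of the 20 peaks with the largest ratios, 14 ranked nearer the top in replicate 1 and 6 in replicate 2, and over the 332 peaks these counts were 181 and 150.

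The intronic label was compared with the annotation. All 334 summits lay within an annotated intron of at least one transcript. The intervals were wider than the summits: 65 touched an exon, 10 touched a promoter window and 265 were clear of both. Next to the upstream bound of the promoter window, the nearest peaks kept were in T28F4.4, 1045 bp upstream of pbrm-1 with a signal of 66.6, and in K05C4.2, 1132 bp upstream of pbs-5 with a signal of 66.1. The nearest peaks left out were in F28D9.4, 936 bp upstream of pigl-1 with a signal of 65.5, and in T09A12.8, 962 bp upstream of T09A12.1 with a signal of 118. Next to the downstream bound, the nearest kept were 245 bp into sec-16A.1 (104) and 265 bp into R02D5.1 (52.4), and the nearest left out were 152 bp into F53C11.5 (409) and 199 bp into thk-1 (60.3). Other small noncoding genes were overlapped by 15 intervals, of which 8 held piRNA genes, 2 miRNA genes, 2 tRNA genes, 2 snoRNA genes and 2 an snRNA gene, with 1 interval counted under more than one kind. Where such a gene has copies elsewhere, its reads may be placed on any of them. How many of these genes have copies was not examined, and how the authors treated such reads is not given in the sources used here.

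Peaks were found in the first intron more often than the sequence open to the rule would place them. That sequence, called eligible, comprised 24.9 Mb, or 30.2% of the autosomes. In the longest transcript spanning the summit, 111 peaks, or 33.2% (28.2 to 38.6%), lay in intron 1, which held 22.1% of eligible bases. Intron 2 held 13.2% of the peaks (9.74 to 17.3%) and 16.2% of eligible bases. Intron 3 held 8.38% of the peaks (5.64 to 11.9%) and 13% of eligible bases. Introns beyond the third held 45.2% of the peaks (39.8 to 50.7%) and 48.7% of eligible bases. The last intron of a transcript, counted also under its number, held 6.59% of the peaks (4.17 to 9.8%) and 14.1% of eligible bases. The first intron lies nearest to the promoter and the last nearest to the 3′ end, and only for these and the third did the interval leave out the share of bases.

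The peaks also lay in long exon-free stretches. A stretch was measured as the run of bases around the summit that no exon of any gene covers, and its median length was 2260 bp at the peaks (80 to 20948) against 858 bp over eligible bases. Stretches of at least 2000 bp held 177 peaks, or 53%, against 22.3% of eligible bases. Stretches of at least 5000 bp held 65 peaks, or 19.5%, against 6.41% of eligible bases. The summit lay 480 bp from the nearest exon at the median. It lay 4396 bp downstream of the 5′ end of its host at the median, from 245 bp in sec-16A.1 to 48662 bp in hmr-1. The nearest 5′ end of a protein-coding gene belonged to the host for 231 peaks and to another gene for 103, and it was more than 5000 bp away for 120 peaks.

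**Figure D3:**
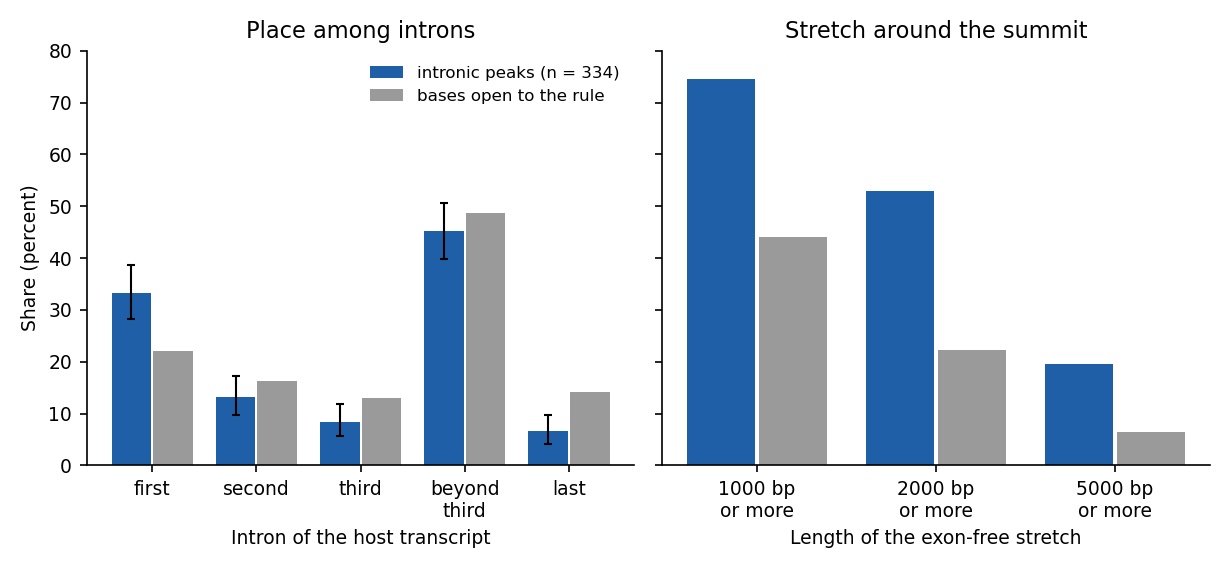
Share of the 334 autosomal intronic peaks (blue) and of the bases open to the rule (grey) by intron number, left, and by length of the exon-free stretch, right, in percent. Error bars, left, are 95% exact intervals for the peaks, and the last intron is also counted under its number. The blue bar is above the grey one for the first intron (33.2% and 22.1%) and for each stretch length, and below it for the last intron (6.59% and 14.1%).

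Promoters of shorter transcripts can lie inside introns of longer ones. The promoter window of another transcript's 5′ end, not used by the rule, held 64 summits, or 19.2% (15.1 to 23.8%), against 11.1% of eligible bases. Among these 64 were the strongest peaks of mnk-1 and par-3 and the peak of signal 355 in zfp-1. The median signal was 86 for these 64 peaks and 91.1 for the other 270. AGGTCA was found at 20.3% (11.3 to 32.2%) of the 64 summits and 16.7% (12.4 to 21.7%) of the 270, which differed by less than the counting error.

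The peaks per eligible Mb numbered 13.4 over the autosomes. They numbered 12.7 on chromosome I, 16.1 on II, 17.1 on III, 11.7 on IV and 10.3 on V. The central portion of each chromosome, taken by cutting its length into 3 equal portions and the region where worm autosomes recombine least, held 124 peaks, or 37.1% (31.9 to 42.6%), against 27.2% of eligible bases. By chromosome, that share was 43.5% of peaks against 27.6% of bases on I, 36.8% against 27.2% on II, 42.7% against 24.1% on III, 28.3% against 28.6% on IV and 30.9% against 28.5% on V. The share of peaks stood above that of bases on I, II and III and close to it on IV and V. No intervals were made for single chromosomes, and the counts are small, as with 25 of 68 peaks on II.

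Most host genes held a single peak, and a few held many. Of the 214 hosts, 149 had 1 peak, 37 had 2, 14 had 3 and 14 had 4 or more. These last 14 genes held 70 peaks. cdc-25.2, a CDC25 phosphatase gene, had 8, with signals of 228, 219, 195, 157, 123, 107, 104 and 72.8. Of these, 7 shared 1 exon-free stretch of 10579 bp, the most in any stretch. hmr-1 had 6 peaks (56.8 to 106), lsy-22, a Groucho-related co-repressor gene, had 6 (103 to 374), and the netrin receptor gene unc-5 had 6 (58.9 to 169). Y111B2A.12, the lamellipodin homologue mig-10, pqn-41 and the Shc adaptor gene shc-2 had 5 each. R10E12.2, Y54H5A.2, cyd-1, the anosmin homologue kal-1, rin-1 and vab-1 had 4 each. The multiple peaks of a gene were of unequal height: the strongest in cyd-1 had 430 against 129 for the next, while the 4 in Y54H5A.2 lay between 83 and 85.9. Peaks that share a host share its chromatin and are not independent, and 8 of the 334 lay within 300 bp of another.

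Among protein-coding autosomal genes with any eligible sequence, 214 of 15056 were hosts, a background of 1.42%. The share depended on how much sequence the gene offered. It was 0.131% for genes with less than 1000 bp, 0.849% from 1000 to 1999 bp, 2.51% from 2000 to 4999 bp, 7.65% from 5000 to 9999 bp and 17.5% from 10000 bp. Peaks per Mb also went up with that length, from 3.37 in the shortest class through 6.57, 9.61 and 15.4 to 24.9 in the longest. Of the hosts, 33, or 15.4% (10.9 to 21%), also had a promoter peak, against 3.35% (3.06 to 3.65%) of the other genes. By increasing length class, that share was 25% (3 of 12), 36.4% (8 of 22), 13.2% (7 of 53), 8.2% (5 of 61) and 15.2% (10 of 66) among hosts. Among the other genes it was 3.12%, 3.46%, 4.04%, 4.08% and 2.89%. The host shares were the higher in each class, but they rest on few hosts and no intervals were made for the classes. Among the hosts with a promoter peak was the Cdk inhibitor gene cki-2, with a promoter peak of signal 368 and intronic peaks of 73.3 and 71.1. Another was efl-3, an E2F-family gene, with a promoter peak of 180 and intronic peaks of 268 and 203.

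Hosts were counted in lists of genes by role, each against the background of 1.42% of genes and 13.4 peaks per eligible Mb. That background is not matched for gene length. Genes with 5000 to 9999 eligible bp had 7.65% hosts and 15.4 peaks per Mb, and longer ones 17.5% and 24.9. The part of length in the list values was not tested. In the cell cycle list, 4 of 53 genes were hosts, namely cdc-25.2, cki-2, cyd-1 and the cyclin E gene cye-1. Their 15 peaks came to 181 per eligible Mb, and to 105 per Mb without cdc-25.2, which alone held 8. The peak in cye-1 had a signal of 82.8 in the series list, 42.4 in replicate 1 and 51.7 in replicate 2, and its interval overlapped a tRNA gene. Cyclins D and E and their inhibitors are known to act at the entry into S phase, and CDC25 phosphatases at the entry into mitosis.

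Among axon guidance and cell adhesion genes, 13 of 56 were hosts, or 23.2% (13 to 36.4%), with 37 peaks and 74.3 per eligible Mb. The hosts were the Eph receptor gene vab-1, the ephrin genes vab-2 and efn-4, the netrin receptor gene unc-5, the cadherin genes hmr-1, cdh-12 and fmi-1, the catenin gene jac-1, the semaphorin gene smp-1, the teneurin gene ten-1, ptp-3, rig-4 and mig-10. The receptor and its ligand were thus both among the hosts: the strongest peak of vab-2 had a signal of 199 in the series list, 106 in replicate 1 and 93 in replicate 2. Ephrin signalling is known to act in the closure of the ventral epidermis of the embryo. The strongest peak of mig-10 had 223 in the series list, 139 in replicate 1 and 91.8 in replicate 2.

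Transcription factor genes were hosts at similar densities. Of the homeodomain genes, 9 of 64 were hosts with 63.8 peaks per Mb. They were led by pal-1 (301), lim-7 (182), ceh-27 (106) and the Meis-type gene unc-62 (105), and they included mab-5, ceh-34, ceh-43, pax-3 and vab-7. Of other neuronal and lineage factors, 16 of 85 were hosts with 74.8 peaks per Mb. They were led by ahr-1 (327), pop-1 (309), the TEAD gene egl-44 (271) and the PAR bZIP gene ces-2 (220), and they included elt-1, pha-4 and hlh-2, which specify epidermal, pharyngeal and neural or muscle fates. The peaks in pal-1 had 160 in replicate 1 and 138 in replicate 2, and those in pop-1 had 181 in replicate 1 and 128 in replicate 2.

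Of Wnt, Notch, Ras and TGF-beta signalling genes, 11 of 64 were hosts with 61.1 peaks per Mb. Hosts of the Notch pathway were the receptor genes lin-12 (75.2 and 65.1) and glp-1 (59.5), the ligand gene apx-1 (88.5), the nuclear effector gene lag-1 (112) and its co-activator gene sel-8 (122 and 61.2). For Wnt signalling the hosts were pop-1, cam-1 and the Nemo-like kinase gene lit-1 (128 and 83). Protein kinase genes were hosts in 9 of 88 cases, with 22.4 peaks per Mb, and RNA-binding genes in 5 of 70, with 41.1 per Mb and 28.3 without mex-3. The RNA-binding hosts included mex-3 (96 and 56.3) and lin-28 (78.7), and none of their peaks exceeded 97.3, in ain-2.

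The remaining lists had between 0 and 26 peaks per Mb. Nuclear hormone receptor genes were hosts in 3 of 243 cases, or 1.23% (0.255 to 3.57%), with 9.34 peaks per Mb. They were nhr-2, the tailless-type gene nhr-67 (99.2) and nhr-46 (61.6). Small GTPase regulators had 2 of 53 and 9.28 peaks per Mb, 3.38 without sos-1, and muscle structure genes had 3 of 46 and 12.8 per Mb, 7.14 without vab-10. Chromatin regulators had 3 of 94 and 26 per Mb, 15.3 without zfp-1, and cytoskeletal genes had 6 of 78 and 24.2 per Mb. No peak lay in the 39 ion channel genes of the list, which offered 259 kb, and the exact interval of that share of 0 reached 9.03%. Channel genes that were hosts but not on that list include trpa-1 (311), tric-1B.1 (126), kvs-5 (58.5) and twk-4 (55.6, in a peak shared with sym-2). The count of 0 therefore covers the listed genes only. In all, 76 hosts were in at least 1 of the 13 lists and 138 in none. The lists overlap, as with sos-1 and pop-1, so their values share some genes and peaks.

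AGGTCA was found within 75 bp of 58 of the 334 summits, or 17.4% (13.5 to 21.9%). It was found in 5.69% (4.06 to 7.72%) of windows of equal width centred 400 bp to either side, and in 3.3% of 127891 windows tiling the eligible sequence. Promoter summits had it in 16.4% (13.3 to 20%) and intergenic summits in 17.6% (14.1 to 21.6%), and the intervals of the 3 classes overlap. The related half-site GGGTCA was found at 12.9% (9.48 to 16.9%) of intronic summits and 2.69% (1.6 to 4.23%) of flanks. The centre of the nearest AGGTCA lay within 25 bp of the summit for 25 peaks, at 26 to 50 bp for 20, at 51 to 75 bp for 17 and at 76 to 200 bp for 31, where words that reach past the edge of the 75 bp window are included. The base before the word was G in 39.3% of 61 words at the peaks and 18.7% of 4401 words in the tiles. Only 3 peaks held the word at 2 places, in nhr-2, ncl-1 and the receptor guanylate cyclase gene gcy-21, so most copies of AGGTCA were the only one in their window. Some windows with AGGTCA also held GGGTCA, as in mig-10 (98.3) and kal-1 (66.4), and these were not counted as pairs.

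The share with AGGTCA was highest among the strongest peaks. In 4 groups of 83 or 84 peaks by signal it was 25% (16.2 to 35.6%), 16.9%, 13.3% and 14.3% (7.61 to 23.6%) from strongest to weakest, and these intervals overlap. Over all intronic candidates, thresholded or not, it was 18.4% in the first 250 by signal, 10% in the next 250, 6.8% at ranks 501 to 1000 and 3% at ranks 1001 to 2000, where it was close to the 3.3% of the tiles. Other words also became rarer down the candidate ranks: over the same 4 rank classes GAGAGA was at 32.8%, 27.2%, 13% and 8.3%, and CAGGTG at 16.8%, 12%, 4% and 2.9%. Within the 334 peaks, from strongest to weakest group, GAGAGA was at 28.6%, 36.1%, 33.7% and 29.8%.

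GAGAGA was found at 32% (27.1 to 37.3%) of intronic summits, 9.13% (7.06 to 11.6%) of flanks and 6.1% of tiles. Promoter summits had it in 27.1% (23.2 to 31.2%) and intergenic summits in 30.4% (26 to 35%), with intervals that overlap the intronic one. It was at 39.6% (30.5 to 49.4%) of summits in a first intron and 28.3% (22.4 to 34.6%) of those in a later one, and these intervals overlap. CAGGTG was found at 15.9% (12.1 to 20.2%) of intronic summits and 4.49% (3.05 to 6.35%) of flanks, with 9.02% (6.65 to 11.9%) at promoter summits and 20.7% (16.9 to 24.9%) at intergenic summits. The other E-boxes searched were at 5.09% (CAGCTG) and 5.39% (CACGTG) of intronic summits and at 2.84% and 3.29% of flanks. The word TGATAA, which factors of the GATA family bind, was less frequent at intronic summits, at 4.19% (2.31 to 6.93%), than in flanks, at 15% (12.3 to 17.9%). It was at 5.01% of promoter and 3.33% of intergenic summits. The AP-1 word TGACTCA was at 1.2% of intronic summits and 0.898% of flanks. The half-site AGGTCA, the GA repeat and the E-box CAGGTG were all missing at 147 summits, whose median signal was 84.1.

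Base composition also differed between the summits and the other windows. Mean GC content was 45.4% at intronic summits, 35.9% and 36.7% in the left and right flanks, 32.6% in the tiles and 30.5% at the intronic candidates outside the thresholded list. It was 44.6% at promoter summits and 44.4% at intergenic summits. Words of A and T were correspondingly rarer at the summits, as with AAAATT at 12.6% of intronic summits and 54.9% of flanks. The part of base composition in the word shares was not tested.

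Among the words of 6 bases that were more frequent at intronic summits than in flanks, the largest differences were for words of GA or CA repeats, for AGAGAC (26.9% of intronic summits and 7.04% of flanks), for CGTCTC and for ACGCAA. The word CGTCTC was at 22.2% of intronic summits and 3.14% of flanks, and ACGCAA was at 20.7% of intronic summits and 3.89% of flanks. At promoter and intergenic summits, AGAGAC was at 26.3% and 23.8%, CGTCTC at 22.6% and 16.6%, and ACGCAA at 15.2% and 12.8%. Of the words of 8 bases, 2 are given, which were chosen after their values were seen. AGACGCAG was at 11.4% of intronic summits and 0.898% of flanks, with 13.4% at promoter and 9.74% at intergenic summits. TTACGCAA was at 30 intronic summits, or 8.98% (6.14 to 12.6%), and in 0.599% (0.163 to 1.53%) of flanks and 0.358% of tiles. Promoter summits had it in 1.4% (0.566 to 2.87%) and intergenic summits in 5.46% (3.49 to 8.08%). PAR bZIP proteins, the family of the worm factor CES-2, are known for binding sites around the close variant TTACGTAA, which was at 1.5% (0.488 to 3.46%) of intronic summits. That variant was in 0.299% of left flanks, 0% of right flanks and 0.143% of tiles. Promoter summits had it in 0.802% and intergenic summits in 2.85% (1.48 to 4.93%). A match to these letters is a description of the window and does not show which protein was there.

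The 30 peaks with TTACGCAA lay in 28 hosts. In 14 of them the word lay within 25 bp of the summit, in 9 at 26 to 50 bp and in 7 at 51 to 75 bp. Their median signal was 167, against 88.8 for the other peaks, and 17 of the 30 were among the 84 strongest of the set. They included the peaks in cyd-1 (430), frl-1 (366), pop-1 (309), pal-1 (301), efl-3 (268), R10E12.2 (253), mig-10 (223) and ces-2 (152), and 2 peaks of cdc-25.2 (228 and 219). In replicate 1 these cdc-25.2 peaks had signals of 132 and 109, and in replicate 2 of 94.8 and 112. Of the 30, 7 also held AGGTCA, 7 held GAGAGA and 5 held CAGGTG. Over all 334 windows, 7 shared a run of 20 bases with another window, and 1 of these 7 held TTACGCAA.

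**Figure D4:**
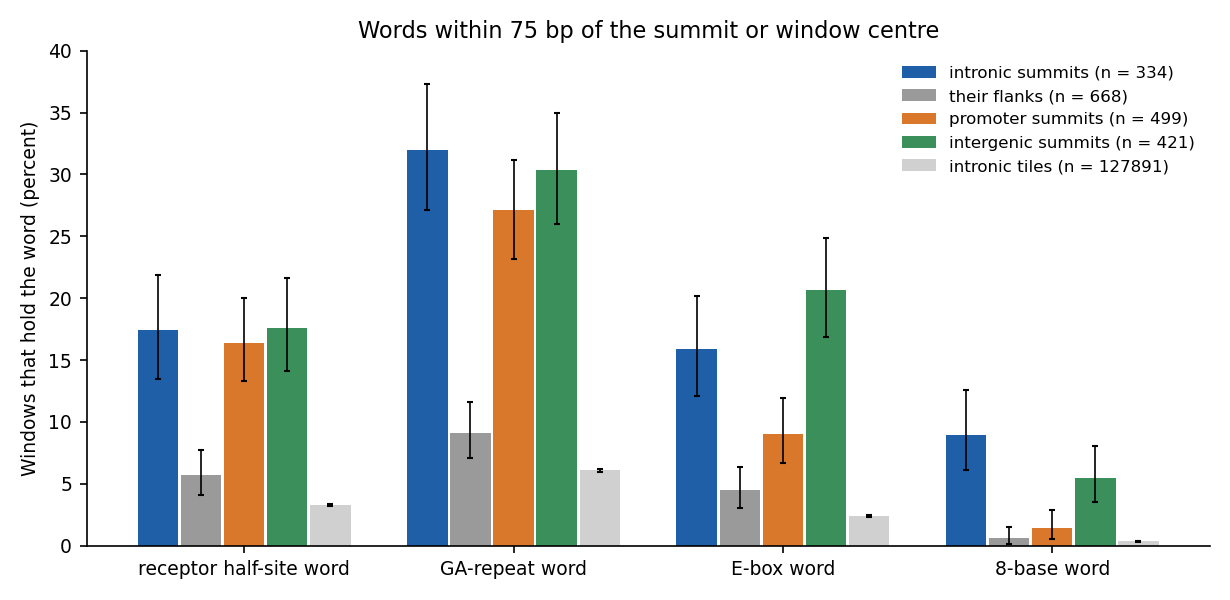
Share of windows, in percent, that hold the receptor half-site word, the GA-repeat word, the E-box word or the 8-base word, within 75 bp of the centre on either strand, at intronic summits, their flanks, promoter summits, intergenic summits and intronic tiles. Error bars are 95% exact intervals. The half-site bars of the 3 kinds of summit are of like height (17.4%, 16.4% and 17.6%). The 8-base word is at 8.98% of intronic, 1.4% of promoter and 5.46% of intergenic summits, and the intronic and intergenic intervals overlap.

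**Figure D5:**
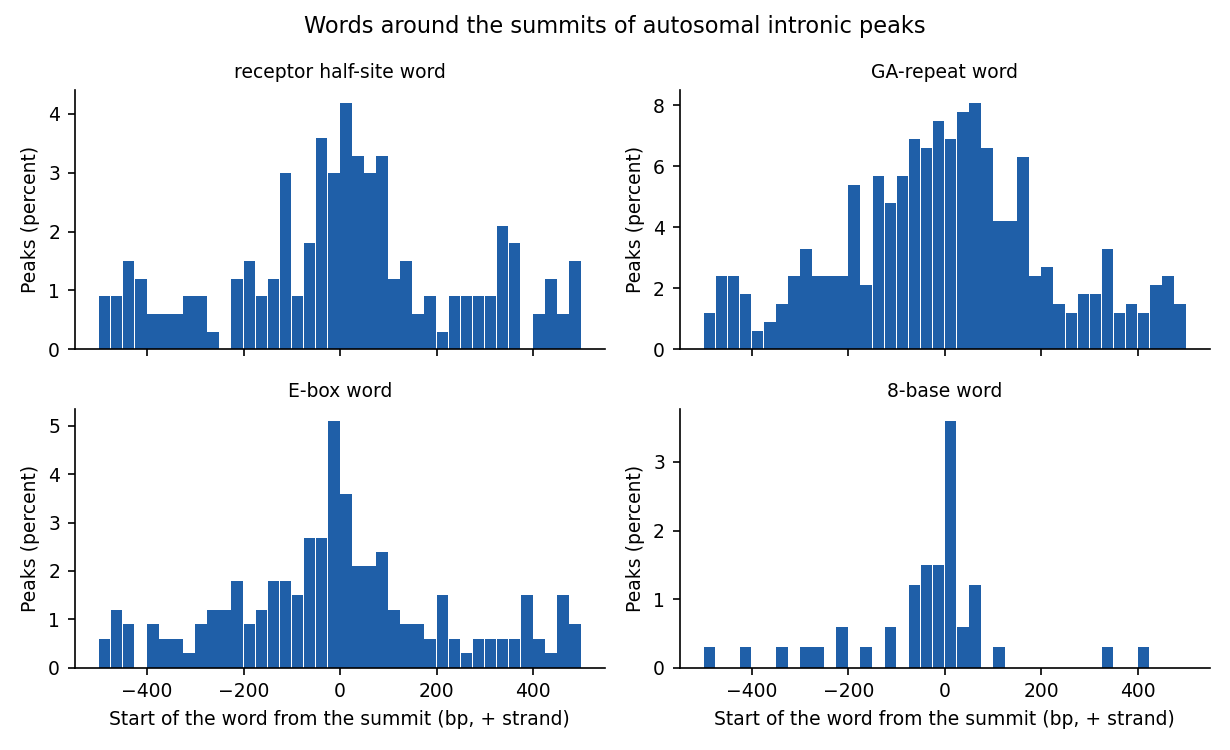
Share of the 334 autosomal intronic peaks, in percent, with a word starting in each 25 bp bin within 500 bp of the summit, for the same 4 words on either strand. The highest bins start at the summit for the half-site word (4.19%) and the 8-base word (3.59%), just before it for the E-box word (5.09%) and 50 bp after it for the GA-repeat word (8.08%). Vertical scales differ between panels.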

How the data were processed

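ChIP-seq regions from 2 biological replicates were used as deposited. Per the texts deposited with the libraries, each replicate and the series had a candidate list, made from the alignments and a control and used as input to the irreproducible discovery rate (IDR), a method that compares ranks between replicates, and 1 thresholded list followed from them. Which aligner, peak caller and IDR cut-off were used is not given in the sources used here. Each deposited list gives a signal per region, the authors' enrichment score, used here only to describe, rank and filter regions within a list. The deposited −log10 q value was at its ceiling for nearly all peaks and was not used for ranking. Each candidate list held 30000 regions and the thresholded list 1861. The lists hold no read numbers, so depth is unknown. The ce10 lists were not used here.

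Summits were placed in the Ensembl release 115 annotation and the RefSeq genome of WBcel235 with Python 3.11.15, pandas 2.3.3, numpy 2.4.6 and SciPy 1.17.1; figures were drawn with matplotlib 3.10.9. Eligible sequence was every autosomal base inside a protein-coding gene and outside all exons, promoter windows and ncRNA genes. Bases beside an ncRNA gene were counted, although a peak there could overlap that gene and be left out by the rule. Words were searched on both strands within 75 bp of a summit, in windows 400 bp to each side and in windows tiling the eligible sequence. Shares have 95% exact Clopper-Pearson intervals. With a single group of samples no test between groups was possible, and none was made over regions. The word counter, the classifier and the intervals were tested on simulated data. The genes named are the hosts of the 25 strongest peaks with a candidate in both replicates, up to 4 of the strongest peaks of each gene list, peaks in nhr-2 and hosts of at least 4 peaks. Others, such as the genes of the TTACGCAA peaks, efl-3, gcy-21, sel-8, lin-12, glp-1, apx-1 and lag-1, the hosts at the rule's bounds and those whose replicates differed most, were chosen with their values in view. The rule and the gene lists were chosen with earlier results of these data known. The labels call the libraries biological replicates and do not say whether they came from separate cultures.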

Additional observations from a re-analysis of the deposited data

How the results depend on the processing

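No paired analysis was possible because the 2 libraries form a single group. Of 78 alternative values, 67 stayed within the interval of the value reported or, for counts, within 1.5 times it. With only the peaks of the upper signal ranks of the thresholded list, 180 peaks in 132 hosts remained and the median stretch was 2641 bp. Of these peaks, 98.3% were among the strongest regions of both replicates. The filter itself raises that share, because the series signal derives from the same 2 replicates. With the whole interval outside exons and promoter windows, the median stretch was 2860 bp and the median signal 99.8. Words within 50 bp gave 13.2% with AGGTCA and 23.7% with GAGAGA, against 3.74% and 4.94% of flanks of that width. Words within 100 bp gave 38% with GAGAGA, against 12.1% of flanks. The share among the strongest regions of both replicates was 53.9% when the overlap had to cover at least 50% of each region, and 88.3% among the 3000 strongest.

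The strongest regions of 1 replicate alone gave between 313 and 334 peaks, between 216 and 218 hosts, between 17.4% and 18.2% with AGGTCA, between 30.4% and 33.2% with GAGAGA and between 15.3% and 15.9% with CAGGTG. They gave between 32.3% and 32.6% in a first intron, between 18.6% and 19.8% near another transcript's 5′ end and a median stretch between 2117 and 2306 bp. Depth is unknown, no control or untagged library was analysed here, and both replicates share the transgene and whole embryos, so cell types cannot be told apart.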
